A study of Mus musculus with 4 samples.

Results

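The Usp genes encode the ubiquitin-specific proteases, the most numerous family of deubiquitinases, and their transcripts were measured here in mouse embryos at the 2-cell stage. The members are the protein-coding genes of GENCODE M21 whose symbol is Usp followed by a number (with an x where the symbol has one), leaving out the multicopy Usp17l genes, Usp29 and genes of chromosome Y. This gave 48 genes of 53715 rows in the count table. The rule uses names only and no measured value, but it was set with earlier results of these data known. All 48 had counts in every library and passed the filter on low counts.

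The knockdown group holds 2 libraries of C57BL/DBA2 embryos injected as zygotes with a small interfering RNA (siRNA) against SPENH0335, which the series' title places among RNAs made from enhancers. The control group holds 2 libraries of the same background, injected with the siRNA labelled siNC. Both groups received the siRNA at 20 μM, were cultured in KSOM and were sequenced as whole embryos from pre-amplified poly(A) cDNA. The level of SPENH0335 itself was not analysed here, so the knockdown of its target was not checked in these libraries. Neither the embryos per library nor the origin of the replicates (separate or shared collections) is stated in the labels, so a p-value here covers the spread between the sequenced libraries, and that spread may be technical only.

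Ubiquitin is a small protein that cells attach to other proteins, through the E1, E2 and E3 enzymes, to mark them for the proteasome, for sorting at membranes or for signalling. Usp enzymes cut it off again with a cysteine in the active site, and so protect substrates from degradation or end a signal. In the early mouse embryo, whose first divisions run on protein and RNA inherited from the egg, ubiquitin-dependent removal of maternal proteins accompanies the start of embryonic transcription.

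The coding sequence around the active-site cysteine is shared by nearly the whole family. A published protein signature of that site was found in 44 of the 48 members, in the translated principal coding sequence of GENCODE M21. In Usp39 it was found only in a looser form, with other residues allowed at the cysteine and at a position before it. Neither form was found in Usp48, Usp53 and Usp54, which says only that these patterns are not in these sequences. The 45 bases around the site are given for the 4 members with the highest levels, for Usp12, the closest relative of Usp46, and for Usp39. They run 5′ to 3′ on the coding strand, and capitals mark the codon of the cysteine or, in Usp39, the aspartate codon in its place.
Usp9x: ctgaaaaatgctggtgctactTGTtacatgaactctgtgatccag
Usp37: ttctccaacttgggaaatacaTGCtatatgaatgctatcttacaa
Usp1: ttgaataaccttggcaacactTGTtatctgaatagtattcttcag
Usp46: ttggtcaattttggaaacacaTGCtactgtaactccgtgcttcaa
Usp12: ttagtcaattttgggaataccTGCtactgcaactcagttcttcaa
Usp39: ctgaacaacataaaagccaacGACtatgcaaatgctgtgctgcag
Usp46 and Usp12 differed at 7 of these 45 bases. The coding sequences of the members ranged from 366 codons (Usp46) to 3582 codons (Usp34).

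Libraries held between 78865491 and 99011109 counts. The 12 markers of the 2-cell embryo include transcripts inherited from the egg: Gdf9, Bmp15, Zp3, Oosp1 and Nlrp5. All 12 markers summed to between 8679 and 9056 CPM, and single markers moved in both directions beneath that sum. None passed the adjusted test. Both knockdown libraries lay above both controls for 4 (Zscan4c, Zscan4d, Zscan4f and Zfp352), against 15.6% of all genes tested. They lay below for 4 (Gdf9, Bmp15, Oosp1 and Nlrp5), against 17.1% of all genes. At an unadjusted p under 0.05, 3 were higher and 1 was lower, against 1.56 and 2.29% of all genes tested. The higher ones were Zscan4c, Zscan4d and Zscan4f, with log2 fold changes of 0.47, 0.36 and 0.56. They are near-identical copies that can share reads. The lower one was Gdf9, at -0.40. The 9 cumulus and granulosa markers summed to between 47.0 and 64.4 CPM. Cyp19a1 held most of that sum, at 36.8 and 55.7 CPM in knockdown and 47.4 and 38.6 CPM in control. Has2 and Foxl2, under 3 CPM in each library, had both knockdown libraries below both controls, and Fshr had them above. Sperm markers summed to at most 17.7 CPM. The 8 markers of blood, oviduct and stroma together had 38.2 and 18.5 CPM in knockdown and 40.2 and 54.7 CPM in control. Hba-a1 was at 24.9 and 10.4 CPM in knockdown and 26.2 and 27.1 CPM in control. Lyz2 was at 4.19 and 1.44 CPM in knockdown and 4.18 and 19.4 CPM in control. Hbb-bs was at 0 in every library. Both knockdown libraries lay below both controls for 4 of the 8 (17.1% of all genes) and above for 1 (15.6%). The part of other cells in the results below was not tested. CPM here are counts scaled to a common library total with edgeR's TMM factors.

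The family took under 1% of all counts in each library, and a few members held most of that share. The 48 genes took 0.944 and 0.905% of all counts in the knockdown libraries and 0.911 and 0.891% in the control libraries. Levels of different genes are compared per kilobase of merged exons, as the mean ± SD over the 4 libraries. On that scale the median member was at 6.22 CPM per kilobase, against 1.67 for the 17050 protein-coding genes tested. Of the members, 39 lay above that median and 11 at or above the 90th percentile of those genes. Levels spanned from 0.0987 CPM per kilobase for Usp35 to 115 for Usp9x. There were 19 members at 10 CPM per kilobase or more, 24 between 1 and 10, and 5 under 1. The 10 highest members took between 76.9 and 79.2% of the family's CPM in each library.

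**Figure D1:**
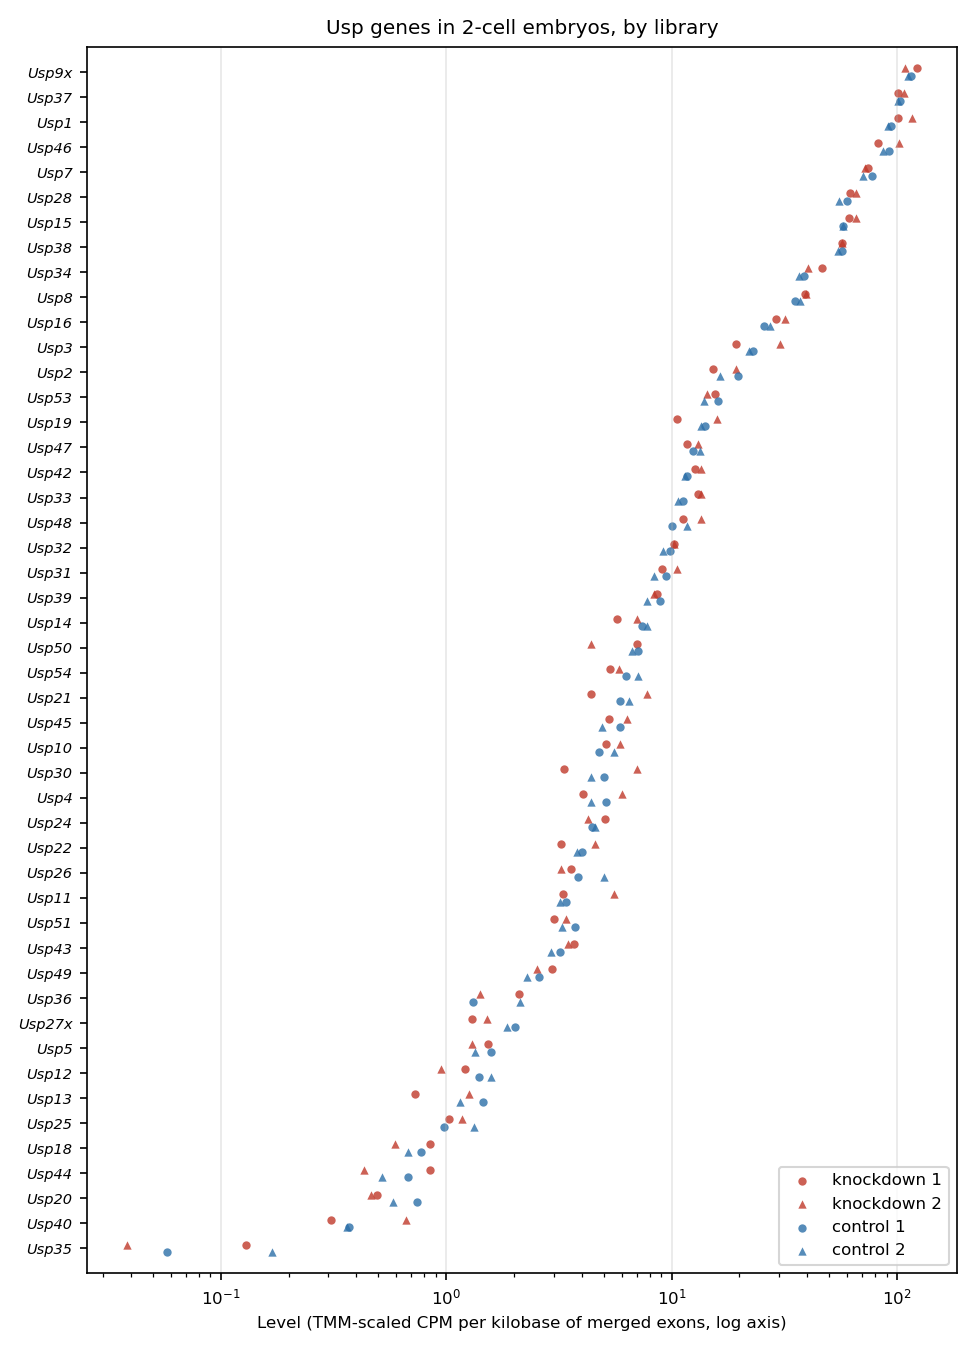
Level of the 48 Usp genes in each library, in TMM-scaled CPM per kilobase of merged exons on a log axis, ordered by the mean; circles and triangles are replicates 1 and 2, red is knockdown and blue is control. Usp9x stands at the top at 115 CPM per kilobase and Usp35 at the bottom at 0.0987, and the libraries of both groups lie close together in most rows.

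The order of the highest members was nearly the same in every library. Usp9x, on chromosome X (13071498 to 13173328, plus strand, GRCm38), was at 115 ± 6.44 CPM per kilobase. It encodes a very large enzyme with many substrates, among them regulators of apoptosis, cell adhesion and TGF-beta signalling. Usp37, on chromosome 1 (74435511 to 74544284, minus strand), acts on cyclin A at the entry into S phase and was at 103 ± 3.12. Usp1, on chromosome 4 (98923810 to 98935543, plus strand), which removes ubiquitin from Fancd2 and Pcna during DNA repair, was at 101 ± 11.4. Usp46 was at 91.0 ± 8.67 CPM per kilobase (chromosome 5, 73998453 to 74068431, minus strand), and Usp7, which acts on Mdm2 and p53, at 73.6 ± 3.10 (chromosome 16, 8689595 to 8792308, minus strand). Usp37 and Usp1 changed places between libraries, with each the higher in 2 of 4. So did Usp28 (60.8 ± 4.49) and Usp15 (60.7 ± 4.0). In knockdown replicate 2, Usp1 was above Usp9x, at 116 against 108 CPM per kilobase. In control replicate 2, Usp8 was above Usp34, at 37.3 against 36.6. The list of the 10 highest was completed by Usp38 at 56.6 ± 1.20, Usp34 at 40.5 ± 4.20 and Usp8 at 37.8 ± 2.00 CPM per kilobase. Of the 9 neighbouring pairs in this list, 5 had ranges over the libraries that did not overlap. Over all 47 neighbouring pairs this held for 10, so most members further down could not be ordered against the next. With the longest transcript as length, Usp16 took the place of Usp8.

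Of the 5 pairs of members aligned over at least 50% of the shorter coding sequence, Usp12 and Usp46 differed widely in level. The other 4 differed by at most 2.34-fold. Pairs aligned over less also differed: Usp28 was at 60.8 and Usp25 at 1.13 CPM per kilobase, Usp33 at 12.1 and Usp20 at 0.569. Usp11 and Usp4, also aligned over less, were closer, at 3.87 and 4.90. The closest in coding sequence over at least 50% of the shorter one were Usp22 and Usp27x, with 78.3% identical bases over 1150, and Usp12 and Usp46, with 77.7% over 1094. Usp12 and Usp46 encode small enzymes that both work with the WD-repeat partners Wdr48 and Wdr20. Usp46 was at 91.0 and Usp12 at 1.29 CPM per kilobase, a ratio of 70.7 that ran from 54.6 to 108 over the 4 libraries. Of the partners, Wdr20 was at 76.4 ± 9.10 and Wdr48 at 12.7 ± 1.36 CPM per kilobase. Usp22, the deubiquitinase of the SAGA coactivator complex, was at 3.92 ± 0.562, its X-linked relatives Usp51 and Usp27x at 3.36 ± 0.300 and 1.68 ± 0.327. Of the subunits that join Usp22 in the complex, Eny2 was at 89.0 ± 7.51 CPM per kilobase, Atxn7 at 6.79 ± 0.639 and Atxn7l3 at 0.614 ± 0.415. Usp5, which disassembles free ubiquitin chains, and its relative Usp13 were close, at 1.44 ± 0.137 and 1.15 ± 0.307.

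The comparison the design names asks what an siRNA against SPENH0335 does to gene expression. No Usp gene passed the test between knockdown and control (edgeR quasi-likelihood test, smallest adjusted p among the members 0.9999). Over all 25565 genes the same test called 0 genes, a percentage of 0. At an unadjusted p under 0.05 there were 0 members, where 3.85% of all genes tested had one, 1.56% higher and 2.29% lower. DESeq2 also called 0 members, with 53 genes called over the whole table, and limma-voom called 0 members and 0 genes. In whole-embryo libraries, fewer cells and less RNA per cell cannot be told apart.

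The log2 fold changes of the 48 members ran from -0.47 (Usp12) to 0.43 (Usp11), with a median of 0.03, against -0.0025 over all genes tested. They lay above 0 for 28 members and below 0 for 20, which is 58.3% above, against 49.7% of all genes. Direction moved with level in the whole table: of genes averaging 10 CPM or more, 55.4% lay above 0, and of those with at least 100 CPM, 67.5%. Among members the same classes had 26 of 37 and 13 of 16 above 0, and of the 11 members under 10 CPM 2 lay above 0. Both knockdown libraries lay above both controls for 10 members (20.8%; 15.6% of all genes) and below for 6 (12.5%; 17.1% of all genes). Together these are 16 of 48 members, and 32.7% of all genes had groups that did not overlap. At a mean of at least 10 CPM these were 10 and 3 of 37, against 19.1 and 13.3% of the genes in that class.

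For most members the interval bounded the difference between the sequenced libraries, whose spread may be technical only. Each interval is for 1 gene and is not adjusted for the number of genes. The 95% interval of the fold change lay within 2-fold in either direction for 38 of 48 members, against 31.8% of all genes tested. It did so for 35 of the 37 with a mean of at least 10 CPM, where 87.8% of all genes in that class had such an interval. The exceptions in that class were Usp30 and Usp11. Within 1.5-fold lay 23 of these 37, against 44.2%. Among the 16 members with at least 100 CPM, 15 did so, against 85% of such genes, and the exception was Usp3. For the 11 members under 10 CPM, 3 intervals lay within 2-fold.

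**Figure D2:**
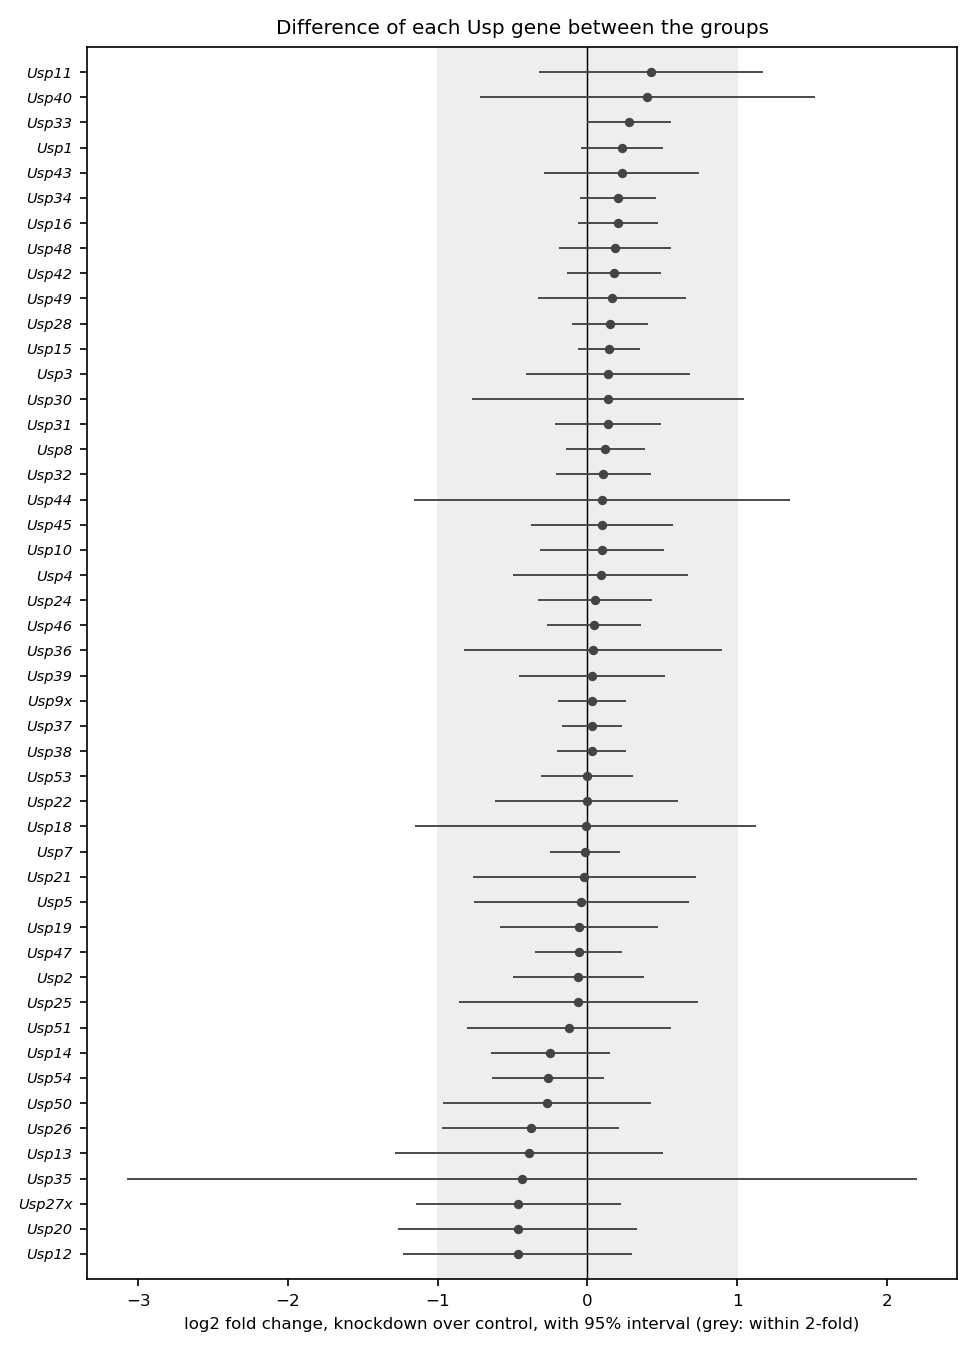
Log2 fold change of each Usp gene, knockdown over control, with its 95% interval (edgeR, 2 libraries per group), ordered by size; the grey band marks a 2-fold difference in either direction. All 48 intervals cross 0, from Usp11 at 0.43 at the top to Usp12 at -0.47 at the bottom, and the interval of Usp35 is the widest.

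Among enzymes of DNA repair and replication, 6 of 7 members had a fold change above 0, with a median of 0.15, and none passed the test. Usp1 was at 376 and 434 CPM in the knockdown libraries and at 351 and 339 CPM in the control libraries. Both knockdown values were the higher, with a log2 fold change of 0.23 (SE 0.11, 95% interval -0.04 to 0.51). Usp37 was at 1115 and 1189 CPM in knockdown and at 1142 and 1117 CPM in control, with groups that overlapped and an interval of -0.17 to 0.23. Usp28, which stabilises Myc and takes part in the p53 response, was at 361 and 385 CPM in knockdown against 350 and 322 CPM in control (log2 fold change 0.15, SE 0.10). The knockdown values were again the higher ones, by less than the test could call. Summed over the 7 members, the group was at 2171 and 2384 CPM in knockdown and at 2165 and 2121 CPM in control.

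The histone and chromatin enzymes divided evenly, with 5 of 10 above 0 and a median of 0.05, and none passed. Usp16, which removes ubiquitin from histone H2A, was at 276 and 303 CPM in knockdown and at 243 and 260 CPM in control. These groups did not overlap (log2 fold change 0.20, SE 0.11). Usp7 was at 579 and 559 CPM in knockdown and at 602 and 547 CPM in control, with the controls on either side of both knockdown values (95% interval -0.25 to 0.22). Usp21, another H2A deubiquitinase, was at 20.96 and 37.1 CPM in knockdown and at 28.1 and 30.7 CPM in control, so here the knockdown libraries lay on either side of the controls. Usp22 was at 15.8 and 22.4 CPM in knockdown and at 19.7 and 18.7 CPM in control, the same picture. Its log2 fold change was -0.0048, and 0.0051 with DESeq2's size factors. Usp27x was at 5.58 and 6.47 CPM in knockdown and at 8.67 and 7.94 CPM in control. Its groups did not overlap, and its log2 fold change of -0.46 had a 95% interval of -1.15 to 0.22.

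Of the enzymes set under signalling and cell adhesion, 10 of 14 lay above 0, with a median of 0.05 and none past the test. Usp9x was at 1857 and 1630 CPM in knockdown and at 1730 and 1683 CPM in control. The knockdown libraries lay outside the controls on both sides, and the fold change was 0.03 (SE 0.09, 95% interval -0.20 to 0.26). Usp15, which regulates TGF-beta receptor signalling, was at 1019 and 1098 CPM in knockdown and at 955 and 961 CPM in control. Usp34, a regulator of axin in the Wnt pathway, was at 856 and 746 CPM in knockdown against 714 and 676 CPM in control. In both genes the knockdown libraries were the higher pair, with log2 fold changes of 0.14 (SE 0.08) and 0.20 (SE 0.10). Exons of Usp34 share 11.6% of their bases with the antisense gene Ahsa2, which was at 43.2 CPM in knockdown and 47.3 CPM in control on average. Usp38 had closely matched values, 328 CPM in each knockdown library and 329 and 314 CPM in the controls. Exons of Usp38 overlap the antisense gene Gm9725 over 20.5% of their bases, and Gm9725 stayed under 1 CPM in each library.

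Usp46 was at 646 and 804 CPM in knockdown and at 725 and 681 CPM in control, with the controls between the knockdown libraries. Its relative Usp12 was at 5.61 and 4.42 CPM in knockdown and at 6.48 and 7.37 CPM in control. The knockdown values of Usp12 were the lower pair, with a log2 fold change of -0.47 (SE 0.31, 95% interval -1.23 to 0.30). Usp18, which removes the ubiquitin-like protein Isg15 after interferon, was at 2.36 and 1.66 CPM in knockdown and at 2.17 and 1.89 CPM in control. These low values overlapped, and the interval of Usp18 reached from -1.15 to 1.13.

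Enzymes of endosomes, the endoplasmic reticulum and membrane traffic had 3 of 5 members above 0, with a median of 0.11. Usp33, which acts on receptors, was at 127 and 130 CPM in knockdown and at 109 and 103 CPM in control. It had the smallest unadjusted p of the family, 0.0526, with a log2 fold change of 0.28 (SE 0.11, 95% interval -0.0044 to 0.56; edgeR adjusted p 0.9999). A predicted antisense gene of unknown kind, Gm43857, overlaps 15.3% of the exon bases of Usp33 and was at 2.22 CPM in knockdown and 1.32 CPM in control on average. Usp8, which sorts receptors at endosomes together with Stam proteins, was at 164 and 166 CPM in knockdown and at 148 and 156 CPM in control. Usp33 and Usp8 thus both had knockdown libraries above the controls, while Usp20, the relative of Usp33, was at 4.43 and 4.18 CPM in knockdown and at 6.66 and 5.23 CPM in control.

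All 3 members set under free ubiquitin and the proteasome had fold changes below 0, with a median of -0.25. Usp14, which trims ubiquitin chains on the proteasome, was at 47.9 and 58.7 CPM in knockdown and at 61.8 and 64.7 CPM in control. The knockdown libraries were the lower pair, and the log2 fold change of -0.25 had a 95% interval of -0.64 to 0.15. Of its exon bases, 25.99% overlap the antisense gene Thoc1, which was at 209 and 216 CPM in knockdown and at 199 and 188 CPM in control, so the count of Usp14 depends on a strand setting that no label or header states. Usp5 and Usp13 had intervals from -0.76 to 0.68 and from -1.28 to 0.50.

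Usp36, a nucleolar enzyme, was at 16.3 and 10.8 CPM in knockdown and at 10.1 and 16.3 CPM in control, with 1 high and 1 low library in each group. Usp39, a component of the spliceosome without the active-site cysteine, was at 21.1 and 20.5 CPM in knockdown and at 21.7 and 19.0 CPM in control (95% interval -0.45 to 0.52). Among the little studied members, Usp54 was at 48.2 and 53.2 CPM in knockdown against 57.0 and 64.6 CPM in control. Usp26, an X-linked gene known for its expression in the testis, was at 14.7 and 13.4 CPM in knockdown against 15.8 and 20.7 CPM in control. Both had the knockdown libraries as the lower pair, with log2 fold changes of -0.26 (SE 0.15) and -0.38 (SE 0.24). The mitochondrial enzymes differed widely in level, with Usp30 at 20.2 and 42.6 CPM in knockdown and 30.5 and 26.5 CPM in control, and Usp35 at under 1 CPM in every library.

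**Figure D3:**
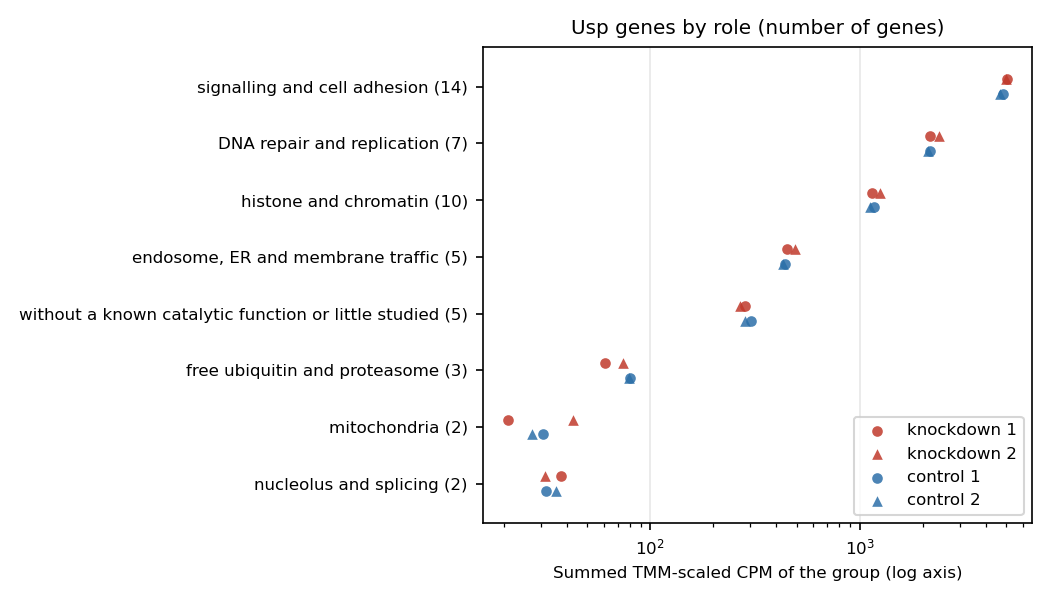
Summed TMM-scaled CPM of the Usp genes of each role in each library, on a log axis; the number of genes stands in brackets, circles and triangles are replicates 1 and 2, red is knockdown and blue is control. The widest spread is between the knockdown libraries for the mitochondrial pair, at 20.9 and 42.8 CPM.

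Over all members the summed level was 9216 and 9540 CPM in knockdown and 9029 and 8753 CPM in control. Both knockdown sums were the higher, and the means of 9378 ± 230 and 8891 ± 196 CPM (SD, 2 libraries each) differed by 487 CPM. By total counts alone the sums were 9438 and 9048 CPM in knockdown and 9109 and 8915 CPM in control, which overlap, and the difference was 231 CPM. An exact test of 2 against 2 libraries cannot give a two-sided p under 0.333, so none was made.

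The knockdown libraries differed from each other more than the controls did. The median absolute log2 difference between replicates of a member was 0.21 in knockdown and 0.13 in control, against 0.49 and 0.33 over all genes tested, or 0.26 and 0.13 for genes averaging 10 CPM or more. In the 37 members of that class it was 0.21 in knockdown and 0.10 in control. Knockdown replicate 2 was the higher for 31 of 48 members (64.6%; 48.2% of all genes tested), and control replicate 2 for 15 (31.2%; 50.1% of all genes). In knockdown this moved with level: replicate 2 was the higher for 60.7% of genes averaging 10 CPM or more and 26 of 37 such members, and for 75.7% of genes at 100 CPM or more and 12 of 16 such members. Usp30, Usp40, Usp21, Usp13, Usp11 and Usp3 were the members with the largest excess in knockdown replicate 2, by 0.64 to 1.09 on the log2 scale. Without knockdown replicate 1, 10 members had an unadjusted p under 0.05, 9 of them higher, where 13.1% of all genes had one, 5.66% higher and 7.44% lower. Without knockdown replicate 2 there were 8, 3 higher and 5 lower, where 8.02% of all genes had one, 3.26% higher and 4.77% lower. Without control replicate 1 or 2 there were 0 members, where 1.89 and 2% of all genes had one. Usp33 and Usp30 were counted in both fits that left out a knockdown library. Usp33 kept its direction, with a log2 fold change of 0.30 without knockdown replicate 1 and of 0.26 without knockdown replicate 2, while Usp30 was at 0.58 without knockdown replicate 1 and at -0.49 without knockdown replicate 2. In none of these fits did a member pass the adjusted test.

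**Figure D4:**
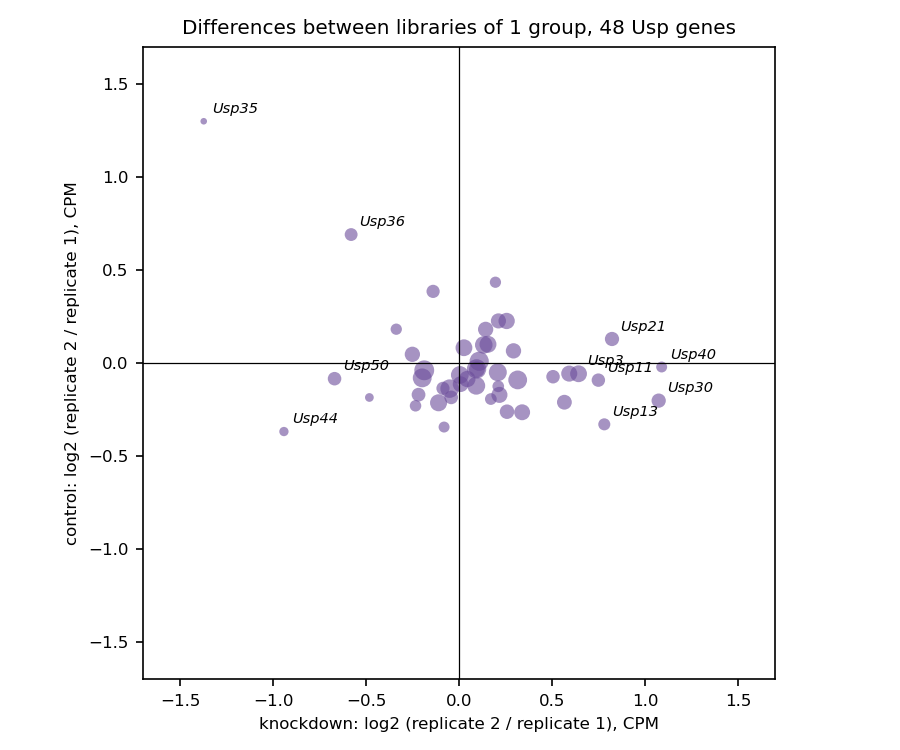
Difference between the 2 libraries of a group for each Usp gene, as log2 of replicate 2 over replicate 1 with 0.1 CPM added to each; knockdown is on the x axis and control on the y axis, point size grows with mean CPM, and members beyond 0.63 in either direction are named. Points spread further along the knockdown axis, where Usp40 reaches 1.09 and Usp35 -1.37, and Usp35 is also the farthest on the control axis.

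The other genes of the ubiquitin pathway gave the same count of calls. Of 96 genes in 9 companion lists 95 were tested, and 0 passed in either direction. An unadjusted p under 0.05 was found for 1 higher and 1 lower gene, against 1.56 and 2.29% of all genes tested. Both of these were metalloprotease-type (JAMM) proteins: Stambp, an endosomal deubiquitinase, was at 64.5 and 65.1 CPM in knockdown against 50.4 and 50.1 CPM in control, and Psmd7, a proteasome subunit, at 34.7 and 29.4 CPM in knockdown against 45.02 and 45.9 CPM in control. Of the 12 JAMM genes 4 lay above 0. In the OTU family of deubiquitinases 4 of 16 lay above 0, with a median log2 fold change of -0.05. There Zranb1 was at 108 and 130 CPM in knockdown against 104 and 87.3 CPM in control, and Otud4 at 405 and 420 CPM in knockdown against 388 and 369 CPM in control. All 8 Josephin, MINDY and Zup1 genes lay above 0, with a median of 0.12, against 49.7% of all genes tested. Their groups overlapped for 6 of the 8. The smallest p belonged to Mindy4, at 4.46 and 3.41 CPM in knockdown and 1.76 and 2.81 CPM in control. Zup1 was at 98.6 and 144 CPM in knockdown and at 126 and 89.7 CPM in control.

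The UCH enzymes, a small family that includes the abundant oocyte and brain enzyme Uchl1, had 1 of 4 above 0. Uchl1 was at 444 and 460 CPM in knockdown and at 465 and 479 CPM in control, and Uchl3 at 385 and 469 CPM in knockdown against 412 and 396 CPM in control. Per kilobase Uchl1 was at 283 ± 8.90 CPM, above each Usp gene, and Uchl3 at 108 ± 9.69. Of the 4 ubiquitin genes 0 lay above 0, and the groups overlapped for 3. Ubb, a polyubiquitin gene, was at 592 ± 22.5 CPM per kilobase. Rps27a, which encodes ubiquitin fused to a ribosomal protein and has processed pseudogenes that can share its reads, was at 16.7 and 7.90 CPM in knockdown against 18.8 and 25.5 CPM in control.

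Among 31 E1 and E2 enzymes of ubiquitin 19 lay above 0, with a median of 0.04. Ube2h was at 225 and 270 CPM in knockdown against 203 and 214 CPM in control, and Ube2d3 at 1829 and 1906 CPM in knockdown against 2070 and 2032 CPM in control. Of 14 partners of Usp enzymes 8 lay above 0. G3bp1, a stress granule protein that binds Usp10, was at 16.4 and 19.4 CPM in knockdown against 26.04 and 22.8 CPM in control, and Eny2 at 547 and 548 CPM in knockdown against 458 and 498 CPM in control. The related proteins outside the naming rule gave Uspl1 at 36.8 and 19.2 CPM in knockdown and 27.7 and 39.1 CPM in control, and Cyld at 15.2 and 18.7 CPM in knockdown and 14.7 and 16.02 CPM in control. Genes of the Isg15 pathway on which Usp18 acts summed to 1.89 and 0.213 CPM in knockdown and 1.63 and 4.99 CPM in control, with Herc6 and Ube2l6 the members of smallest p and both under 3 CPM in each library.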

How the data were processed

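The authors deposited 1 table of whole-number counts per gene, not normalized by its values, with 53715 rows named by Ensembl gene ID. Per the submitters' processing notes, the tools were HISAT2 2.1.0, Picard 2.18.2, CASAVA 1.8 and Trim Galore 0.6.5, with mm10 as the build; their roles are not stated. No label or header names the counting tool, the annotation release or the strand setting. Rows were matched to GENCODE M21 (GRCm38) by ID, which found 53620. The cDNA was pre-amplified and no molecular identifiers are named. No 2 libraries agreed within sampling noise (smallest chi-square per degree of freedom 28.8).

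Counts were tested over all genes with edgeR 4.0.16 in R 4.3.3: filterByExpr with a minimum of 10 counts, TMM scaling, a quasi-likelihood F-test of knockdown over control, two-sided, with Benjamini-Hochberg adjustment at 0.05. The SE is the fold change over the square root of F. DESeq2 1.42.0 and limma 3.58.1 were alternatives. In simulated data of 25565 genes with this comparison, the test called, among genes averaging 10 CPM or more, 13 of 32 genes changed 2-fold and 38 of 43 changed 4-fold. Coding sequences came from GENCODE M21 transcripts and were compared with BLAST+ 2.17.0.

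Members, role groups and lists were chosen with earlier results of these data known, so no list test was made. Named members are the 10 highest per kilobase, the 5 with the smallest p in each direction (none had p under 0.05) and a panel of 10; named companion genes are the 2 with the smallest p in each list. One companion gene is not reported here. Other genes are named where a text sentence singles them out, chosen after their values were seen.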

Additional observations from a re-analysis of the deposited data

How the results depend on the processing

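No Usp gene passed the adjusted test under any setting run: DESeq2's size factors, no filter, a mean of at least 10 CPM, DESeq2, limma-voom, the replicate block and each library left out. Over all genes the count was 0 with each edgeR and limma setting on 4 libraries, 53 with DESeq2, and from 0 to 3 with 1 library left out. Members at an unadjusted p under 0.05 numbered 0 on 4 libraries and from 0 to 10 with 1 left out, where the share of all genes tested ran from 1.89 to 13.1%. A group reduced to 1 library is assumed there to vary like the other. The replicate block called 0 genes. Replicate differences of the groups correlated at -0.207 over 8185 genes. With 1 difference in each group, that value cannot decide whether replicate numbers pair the libraries. Crossing the numbers, added after seeing the data, also called 0 genes.

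Of 22 named members, 12 kept their direction in all alternatives run and 10 turned in at least 1. With a library left out, the ranges of log2 fold change were -0.065 to 0.13 for Usp9x, -0.013 to 0.076 for Usp37, -0.12 to 0.19 for Usp46, -0.082 to 0.053 for Usp7, -0.0046 to 0.058 for Usp38, -0.48 to 0.34 for Usp21, -0.28 to 0.23 for Usp22, -0.28 to 0.43 for Usp36, -0.060 to 0.12 for Usp39 and -0.29 to 0.22 for Usp18. Usp22 also turned with DESeq2's size factors (0.0051) and DESeq2 (0.011). The summed level of the members was 231 CPM higher in knockdown by total counts, against 487 CPM with TMM; the scaling alone sets these apart. Pre-amplified counts without molecular identifiers limit what depth can add, and 2 libraries per group limit the intervals.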
